A study of Homo sapiens with 8 samples.

Results

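The 7 genes described here encode enzymes that make or use UDP-sugars: *GFPT1*, *GNPNAT1*, *PGM3* and *UAP1* of the hexosamine pathway, *OGT*, which uses its product, and *UGP2* and *UGDH*, which make UDP-glucose and UDP-glucuronate. They were chosen because *UAP1* and *UGDH* were higher after Z325 in these same libraries, so the Z325 differences of the 7 genes are given as a description, without a p-value. All 7 are among the 63241 genes listed for NCI-H716. For HCT116, 5 of them are among the 28043 genes used, since the table used here lists chromosomes 1 to 8 in full and ends on chromosome 9. *GNPNAT1*, on chromosome 14, and *OGT*, on chromosome X, therefore have NCI-H716 values only.

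RNA had been sequenced from 2 colorectal cancer cell lines, HCT116, an epithelial line, and NCI-H716, a line with neuroendocrine features, each as control and after Z325. Z325 is ZINC000101867325, a small molecule picked by docking as a candidate inhibitor of the fibroblast growth factor receptors FGFR1 to FGFR4, and the treated libraries are titled Test. In a binding assay the study found its affinity strong for the kinase domain of FGFR1 and poor for that of FGFR4. It also reported lower FGFR phosphorylation in treated cells. Each of the 4 groups held 2 libraries, made from about 100 cells per reaction by SMART-Seq2, which does not mark the strand. The labels give no dose, duration or vehicle. The study set its working concentration from viability assays in these lines and dissolved Z325 in DMSO. It does not state the dose or duration for the sequenced cells. The study calls the libraries of a group biological duplicates, while the labels do not say how separately the cells were grown or treated, and spreads and p-values measure the differences between these libraries. In bulk RNA, fewer cells of a type and less RNA per cell cannot be told apart.

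In the hexosamine pathway, GFPT1 converts fructose-6-phosphate to glucosamine-6-phosphate, the step that limits its rate. GNPNAT1 adds the acetyl group, PGM3 moves the phosphate, and UAP1 joins the sugar to UDP to give UDP-GlcNAc, the donor for N-glycans, hyaluronan, heparan sulfate and O-GlcNAc. OGT attaches O-GlcNAc to serines and threonines of nuclear and cytosolic proteins. UGP2 makes UDP-glucose, and UGDH oxidizes it to UDP-glucuronate, used for glycosaminoglycans and, in the liver and gut, for the glucuronidation of drugs, bilirubin and steroids.

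Over the 28043 genes used, the total count of the HCT116 control libraries was 13339282 and 13183792. That of the HCT116 Z325 libraries was 13396225 and 3434620, so that Z325 replicate 2 was much shallower than the rest. The NCI-H716 libraries held between 10210239 and 19738840 counts over 63241 genes. Since the HCT116 totals leave out most later chromosomes, values relative to a total are not on the same scale in the lines. Of the epithelial markers, *EPCAM* was above 10 CPM (counts relative to these totals) in both lines. It was the 1 of 3 listed markers at that level in HCT116, while in NCI-H716 4 of 7 were, with *CDX1* listed at 0. The 3 listed epithelial markers summed to 1476 to 1637 CPM in HCT116 control and 1578 to 1650 CPM in HCT116 Z325 libraries. In NCI-H716, 5 of 7 neuroendocrine markers were above 10 CPM. Their sum ran from 908 to 1042 CPM in control and from 1169 to 1401 CPM in Z325 libraries, while that of the epithelial markers ran from 740 to 749 and from 629 to 630 CPM. In HCT116, 3 of the 7 neuroendocrine markers were listed, and 1 of them, *SCG2*, was above 10 CPM. It was at 21.3 and 22.3 CPM in HCT116 control and at 14.0 and 18.1 CPM in HCT116 Z325 libraries. Of the 6 fibroblast markers, *COL3A1* and *LUM* were above 10 CPM in NCI-H716, with the list at 499 to 514 CPM in control and 476 to 506 CPM in Z325 libraries. Within this sum *COL3A1* was at 240 and 267 CPM in control and 308 and 356 CPM in Z325 libraries, and *LUM* at 272 and 228 CPM and at 197 and 118 CPM. In HCT116, 4 of the 6 were listed, without *LUM*, and these summed to 2.54 to 8.73 CPM in all libraries. Leukocyte markers summed to at most 5.10 CPM and endothelial markers to at most 0.392 CPM in any library. Of these, 2 of 5 leukocyte and 1 of 4 endothelial markers were listed in HCT116, so the rest were not measured there. Whether these marker differences in NCI-H716 play a part in the differences below was not tested.

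The genes lie apart from each other in GRCh38. *UAP1* (ENSG00000117143) is on chromosome 1 at 162561722 to 162601240, plus strand, and *UGDH* (ENSG00000109814) on chromosome 4 at 39498755 to 39528311, minus strand. *GFPT1* (ENSG00000198380) and *UGP2* (ENSG00000169764) are both on chromosome 2, at 69319780 to 69387250 and 63840952 to 63891562. *PGM3* (ENSG00000013375) is on chromosome 6 at 83147324 to 83193936, *GNPNAT1* (ENSG00000100522) on chromosome 14 at 52775193 to 52791668, and *OGT* (ENSG00000147162) on chromosome X at 71533087 to 71575892. Sequence from the 250 bases before a start site is shown for the 3 genes with the largest log2 fold changes in either line, from RefSeq promoters of GRCh38.p14 and limited to the longest stretch outside annotated exons. For *UAP1* these are all 250 bases before the start. For *GFPT1* 227 of them remain, and for *UGDH*, whose window overlaps its own exons, the 91 farthest from the start. The *UGDH* stretch thus does not adjoin the start used, and it lies inside the span of the gene given above. Capitals mark matches to the motifs searched, on either strand.
UAP1, chr1:162561472-162561721, plus strand: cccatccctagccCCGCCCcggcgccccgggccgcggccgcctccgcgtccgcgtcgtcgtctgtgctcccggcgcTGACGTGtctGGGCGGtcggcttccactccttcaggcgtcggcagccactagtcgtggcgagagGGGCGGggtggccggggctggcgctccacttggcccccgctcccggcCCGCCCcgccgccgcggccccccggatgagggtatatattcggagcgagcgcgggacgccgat
GFPT1, chr2:69387251-69387477, minus strand: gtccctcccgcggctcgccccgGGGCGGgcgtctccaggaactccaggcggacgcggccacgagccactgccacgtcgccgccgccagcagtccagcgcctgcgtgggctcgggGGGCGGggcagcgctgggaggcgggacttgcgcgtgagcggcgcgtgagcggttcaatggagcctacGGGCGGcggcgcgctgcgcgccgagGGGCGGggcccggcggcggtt
UGDH, chr4:39527599-39527689, minus strand: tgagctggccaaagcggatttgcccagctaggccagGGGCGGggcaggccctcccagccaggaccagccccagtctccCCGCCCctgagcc

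The motifs searched in the 250 bases were TGACNNNGC, the core of the antioxidant response element, TGATGNAA of the ATF4-C/EBP element, the E-box CACGTG, the core bound by XBP1 and ATF6 (TGACGTG), the GC box GGGCGG and CCAAT. The 7 genes have 11 such windows, up to 3 a gene. GC boxes occurred in all 11, against 42.6% of all 35116 promoters, and the GC content of the 11 windows, 60.8% to 80.8%, was above the median promoter's 58%. The *UAP1* stretch has 4 of them, beginning 237, 164, 110 and 63 bases before the start, and the *GFPT1* stretch also has 4. TGACGTG, held by 1.68% of all promoters, was found for *UAP1* alone among the 7 genes, 174 bases before its start. The antioxidant core, held by 10.9% of promoters, was found for *OGT* alone, and neither the ATF4-C/EBP letters (3.14% of promoters) nor the E-box (6.34%) were in any window of the 7 genes. CCAAT, held by 32% of promoters, was in windows of *UAP1*, *UGP2* and *PGM3*, though not in the *UAP1* stretch shown. These matches describe letters in a window and were not tested for binding.

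In HCT116, *UAP1*, which makes UDP-GlcNAc itself, was 2.84-fold higher after Z325. It stood at 445 and 505 CPM in control and at 1460 and 1236 CPM in Z325 libraries, CPM here being scaled by TMM normalization. The control mean was 475 ± 41.8 CPM (SD, n = 2) and the Z325 mean 1348 ± 158 CPM (SD, n = 2), a log2 fold change of 1.51 with a standard error of 0.14. The raw counts behind the values were 6159 and 6579 in control and 18673 and 4316 in Z325 libraries. Both treated libraries lay far above both controls, also the shallow one, and without that library the log2 fold change was 1.65.

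Upstream of *UAP1*, the rate-limiting *GFPT1* was at 91.3 and 89.7 CPM in HCT116 control and at 135 and 181 CPM in Z325 libraries, with a log2 fold change of 0.80 ± 0.18 (SE). The controls were almost level, whereas the Z325 libraries stood well apart from each other, and the shallow one was the higher. Without it, the log2 fold change was 0.60. *PGM3*, the mutase between them, was at 228 and 242 CPM in control and 355 and 327 CPM in Z325 libraries, a log2 fold change of 0.54 ± 0.13 (SE).

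On the UDP-glucuronate branch, *UGDH* was at 235 and 279 CPM in HCT116 control and at 463 and 483 CPM in Z325 libraries. Its mean was 257 ± 31.5 CPM in control and 473 ± 14.0 CPM after Z325 (SD, n = 2 each), which is a log2 fold change of 0.88 ± 0.14 (SE). *UGP2*, which supplies its substrate, lay on the other side of the controls, at 294 and 310 CPM in control and 273 and 249 CPM in Z325 libraries. Its log2 fold change was -0.21 ± 0.13 (SE), the smallest in size among the 5 genes.

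In NCI-H716 the order was another, with *UGDH* the most changed and *UAP1* close to its controls. *UGDH* was at 192 and 189 CPM in control and at 512 and 448 CPM in Z325 libraries, 2.52-fold higher on average, with a log2 fold change of 1.33 ± 0.16 (SE). The control libraries nearly coincided, and the Z325 mean of 480 ± 45.3 CPM (SD, n = 2) was several SDs above them. *UGP2* was at 133 and 149 CPM in control and 178 and 186 CPM in Z325 libraries, a log2 fold change of 0.36 ± 0.16 (SE). Both genes of this branch thus had both Z325 libraries above both controls.

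*GFPT1* was at 138 and 191 CPM in NCI-H716 control and at 319 and 340 CPM in Z325 libraries, with a log2 fold change of 1.01 ± 0.19 (SE). The spread between its controls, 164 ± 37.9 CPM (SD, n = 2), was the widest of the 7 genes, and both treated libraries lay above both of them. *GNPNAT1*, the acetyltransferase of the next step, was at 115 CPM in both controls and at 100 and 97.4 CPM in Z325 libraries, a log2 fold change of -0.22 ± 0.16 (SE). *PGM3* was at 66.3 and 67.4 CPM in control and 90.3 and 89.3 CPM in Z325 libraries, a log2 fold change of 0.43 ± 0.16 (SE).

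*UAP1* was at 88.9 and 102 CPM in NCI-H716 control and at 105 and 110 CPM in Z325 libraries. The groups did not overlap, but the log2 fold change of 0.18 was about as large as its standard error of 0.17. *OGT* was at 49.1 and 39.3 CPM in control and 52.8 and 45.9 CPM in Z325 libraries, the only gene of the 7 whose groups overlapped there.

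**Figure D1:**
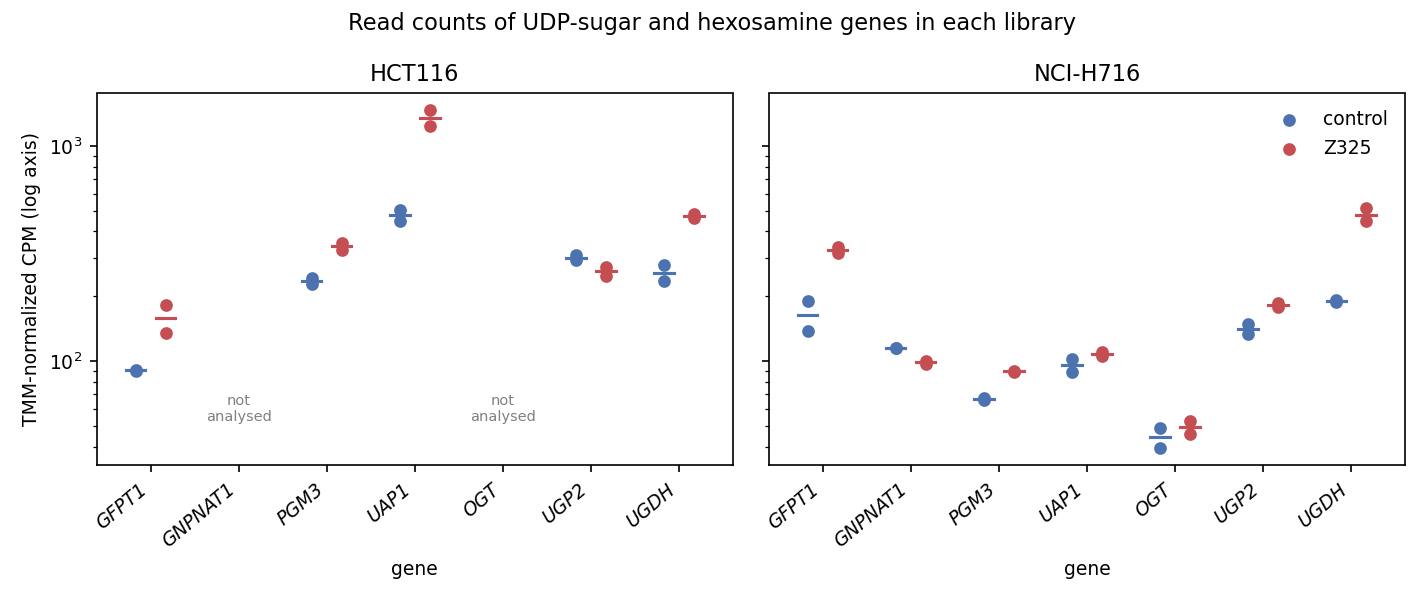
TMM-normalized CPM (log axis) of the 7 genes in each library of HCT116 (left) and NCI-H716 (right), control in blue and Z325 in red, with bars at the means of the 2 libraries. The widest gap in HCT116 is that of *UAP1*, from 475 to 1348 CPM, and in NCI-H716 that of *UGDH*, from 190 to 480 CPM. *GNPNAT1* and *OGT* were not analysed in HCT116.

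At an adjusted p under 0.05 (edgeR's quasi-likelihood test with Benjamini-Hochberg adjustment over all genes tested), 5.78% of the 6491 HCT116 genes were called, with 2.83% called higher and 2.94% lower. Of the 5 genes, 4 were called higher (*UAP1*, *UGDH*, *GFPT1* and *PGM3*). In NCI-H716, 0.502% of 14142 genes were called with 0.403% called higher and 0.0990% lower, and of the 7 genes *UGDH* was called. Since these genes were picked from this contrast, nothing is read from either count. All passed the filter on low counts. Leaving out either HCT116 control library reduced the called genes there to *UAP1* alone, and leaving out NCI-H716 control replicate 1 removed *UGDH*.

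Both Z325 libraries lay above both controls for 4 of 5 genes in HCT116 and 5 of 7 in NCI-H716, and below them for 1 gene in each, *UGP2* and *GNPNAT1* respectively. Over all genes tested, 24.8% were above and 29.0% below in HCT116, and 24.3% above and 25.1% below in NCI-H716. The median log2 fold change was 0.80 over the 5 genes and -0.03 over all tested in HCT116. In NCI-H716 it was 0.36 over the 7 genes and -0.01 over all tested.

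**Figure D2:**
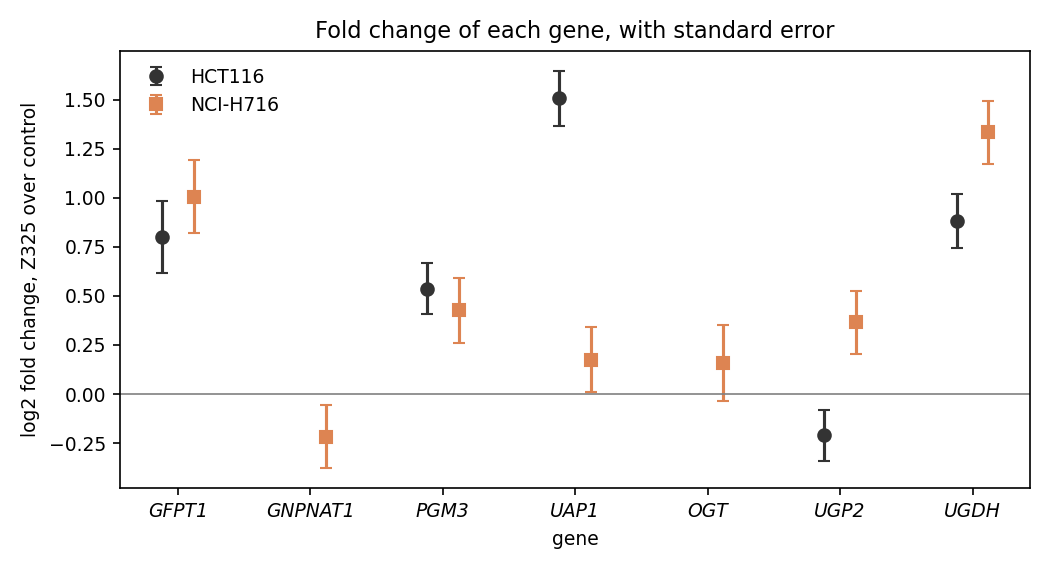
Log2 fold change of Z325 over control for each of the 7 genes in HCT116 (black circles) and NCI-H716 (orange squares), with bars for 1 standard error. *UAP1* is at 1.51 in HCT116 and 0.18 in NCI-H716, *UGP2* lies on opposite sides of 0 in the lines, and *GFPT1* and *PGM3* differ between the lines by less than 1 standard error of that difference.

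The difference between the lines was estimated for the 5 genes listed in both tables, in a fit over all 8 libraries, as the log2 fold change in NCI-H716 minus that in HCT116. It was -1.34 with a standard error of 0.21 for *UAP1*, the gene by which the lines differed most. For *UGDH* it was 0.44 ± 0.20 and for *UGP2* 0.56 ± 0.20, both toward NCI-H716. *GFPT1*, at 0.20 ± 0.26, and *PGM3*, at -0.12 ± 0.20, differed by less than 1 standard error. The tables of the lines came from different counting tools, which the fit absorbs only as far as the tool acts alike on control and treated libraries.

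Ratios of counts within a library do not depend on its depth or scaling. Since *UGDH* and *UAP1* were chosen from this contrast, their ratios are a description and not separate support. How often other pairs of genes separate as far was not computed. The ratio of *UGDH* to *UGP2*, the enzyme before it, was 0.799 and 0.902 in HCT116 control and 1.70 and 1.94 in Z325 libraries. In NCI-H716 it was 1.44 and 1.26 in control and 2.87 and 2.41 in Z325 libraries. The mean ratio was thus 2.14 and 1.95 times as high after Z325 in HCT116 and NCI-H716. The ratio of *UAP1* to *PGM3*, again the step before, behaved differently by line, going from 1.95 and 2.09 to 4.12 and 3.79 in HCT116 but from 1.34 and 1.52 to 1.17 and 1.24 in NCI-H716.

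Within the hexosamine steps of NCI-H716, the ratio of *GFPT1* to *GNPNAT1* was 1.19 and 1.67 in control and 3.19 and 3.49 in Z325 libraries. That of *UAP1* to *GNPNAT1* was 0.772 and 0.891 in control and 1.05 and 1.13 in Z325 libraries. Both ratios were higher in both Z325 libraries, by 2.33 times for *GFPT1* and 1.31 times for *UAP1* on average. *OGT* relative to *OGA*, which removes O-GlcNAc, was 0.969 and 0.667 in control and 0.658 and 0.694 in Z325 libraries, with overlapping groups.

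Per transcript length, the levels of the genes within a line can be compared. In NCI-H716 control libraries, *UGP2* was highest at 60.4 ± 5.43 TPM (SD, n = 2), and *UGDH* followed at 54.3 ± 0.559 TPM, a gap not much over the SD of *UGP2*. Then came *GNPNAT1* at 42.9 ± 5.41 TPM and *UAP1* at 29.1 ± 4.89 TPM. *GFPT1*, at 17.5 ± 3.75 TPM, and *PGM3*, at 17.5 ± 2.26 TPM, could not be ordered, and *OGT* was lowest at 7.10 and 5.69 TPM. After Z325 *UGDH* came first at 134 ± 11.2 TPM, ahead of *UGP2* at 77.3 ± 1.90 TPM. *UAP1*, at 38.0 ± 6.63 TPM, and *GNPNAT1*, at 37.4 ± 0.976 TPM, did not differ beyond their spread, and *GFPT1* followed at 32.1 ± 3.72 TPM, its higher library at 34.7 TPM within the range of *UAP1*. *PGM3* was at 18.9 ± 2.26 TPM and *OGT* at 7.01 ± 0.608 TPM.

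In HCT116, FPKM computed from the counts, exon lengths and listed totals put *UAP1* first in control libraries at 104 ± 5.71 FPKM (SD, n = 2). It was followed by *UGDH* at 64.6 ± 5.77 FPKM and *UGP2* at 45.0 ± 0.161 FPKM. *PGM3*, at 10.8 ± 0.0920 FPKM, and *GFPT1*, at 10.4 ± 0.468 FPKM, were within the larger of their spreads. After Z325 *UAP1* was at 287 ± 21.0 FPKM and *UGDH* at 116 ± 8.56 FPKM, again ahead of *UGP2* at 37.8 ± 0.751 FPKM, and *GFPT1*, at 17.7 ± 4.44 FPKM, and *PGM3*, at 15.2 ± 0.217 FPKM, were not separated beyond the spread. The length used for each gene is the union of its annotated exons, 22007 bases for *PGM3*, 6791 for *UGP2* and 4025 for *UGDH*. This lowers FPKM in this line relative to one based on single transcripts, and not equally for all genes. In NCI-H716 control libraries the mean transcript length was 2007 and 2011 bases for *UGP2* and 2917 and 2861 bases for *UGDH*. The order of the genes by FPKM in HCT116 therefore depends on the lengths used and is uncertain.

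For NCI-H716 the authors' files also hold a mean transcript length per gene and library, weighted by the abundance of its isoforms. For *UAP1* it was 2851 and 2625 bases in control and 2570 and 2123 bases in Z325 libraries, a mean change of -14.3%. Both treated libraries lay below both controls, which held for 14.5% of all genes tested, and 6.43% of genes had a lower ratio of treated to control length than *UAP1*. *PGM3* went the other way, from 2846 and 3448 bases to 3474 and 3961 bases, higher by 18.1%, and 91.1% of genes had a lower ratio. Since these lengths come from the same contrast that the genes were chosen on, the shifts are given without a test.

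For the other 5 genes the mean length changed by between -4.89% for *GNPNAT1* and 5.43% for *GFPT1*, inside the range from -9.95% (10th percentile of all genes tested) to 16.2% (90th percentile). These lengths enter the TPM and FPKM values. *UAP1* had a log2 fold change of 0.18 in NCI-H716 counts but 0.44 on the log2(FPKM + 1) scale, and *PGM3* one of 0.43 in counts and 0.17 on that scale.

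Some of the reads could belong to neighbours, since strand was not marked. *UGDH* shares 12.8% of its exon bases with *UGDH-AS1* on the other strand, and *UGDH-AS1* had at most 28 counts in any library. *GNPNAT1* shares 35.6% with ENSG00000259049, which had 175 and 187 counts in control and 179 and 422 in Z325 libraries, so its small difference is uncertain. *PGM3* shares 7.03% with *DOP1A*, which had between 14 and 150 counts. *UGP2* shares 0.398% with a gene listed at 0, and *UAP1*, *GFPT1* and *OGT* share none.

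Another 73 genes of nucleotide-sugar metabolism, in 7 lists, were measured beside these enzymes. In HCT116, 42 were listed, 31 passed the filter, 1 rose and 1 fell at an adjusted p under 0.05 in edgeR's quasi-likelihood test, which called 5.78% of all genes tested there. DESeq2 called 9 of the 31, 5 higher and 4 lower, and 767 of all 6491 genes tested. Higher were *GNPDA2*, *GBE1*, *FPGT*, *SLC35A1* and *SLC35A3*, and lower were *GNPDA1*, *GALM*, *GMPPA* and *SLC35A4*. The median log2 fold change of the 31 was -0.16, and 12 were above 0 and 19 below. In NCI-H716, 65 of 73 passed the filter and none was called by edgeR, while 4 were higher and 5 were lower with an unadjusted p under 0.05. DESeq2 called 1 of the 65, and 364 of all 14142 genes tested. The median log2 fold change of the 65 was -0.03. An unadjusted p under 0.05 was reached by 35.5% of the tested genes of the lists in HCT116, against 23.9% of all genes tested, and by 13.8% against 16.9% in NCI-H716.

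Among the enzymes of UDP-hexose, UDP-xylose and glycogen, *GBE1*, the glycogen branching enzyme, rose in HCT116. It was at 65.3 and 71.5 CPM in control and 113 and 121 CPM in Z325 libraries, with a log2 fold change of 0.77 ± 0.17 (SE) and an adjusted p of 0.0372 in edgeR. *GMPPA*, a regulatory subunit in GDP-mannose synthesis, fell from 165 and 219 CPM to 81.6 and 91.1 CPM, with a log2 fold change of -1.16 ± 0.18 (SE) and an adjusted p of 0.0134 in edgeR. *GBE1* was no longer called without either control library, and *GMPPA* was not called without control replicate 2. Neither was called by limma on log2(FPKM + 1). In NCI-H716 the log2 fold change was 0.33 for *GBE1* and -0.17 for *GMPPA*, and neither was called.

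Of the other hexosamine enzymes, 5 of 10 were tested in HCT116 and 10 of 10 in NCI-H716, and edgeR called none in either line. In HCT116 the paired glucosamine-6-phosphate deaminases, which run the first step backwards, lay on opposite sides. *GNPDA2* had a log2 fold change of 0.54 and *GNPDA1* of -0.63, with adjusted p-values of 0.0853 and 0.0940 in edgeR and of 0.0199 and 0.0303 in DESeq2, which called both. *GNPDA2* shares exon bases with another annotated gene and is uncertain. In NCI-H716, *OGA*, the O-GlcNAcase, was at 50.7 and 58.9 CPM in control and 80.3 and 66.1 CPM in Z325 libraries, a log2 fold change of 0.42 with an adjusted p of 0.290 in edgeR. *GPI*, which makes the fructose-6-phosphate that GFPT1 uses, had a log2 fold change of -0.33 (edgeR adjusted p = 0.369).

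Users of UDP-glucuronate were also measured, 10 UDP-glucuronosyltransferases and *UXS1*, which turns it into UDP-xylose. In HCT116 no glucuronosyltransferase passed the filter, and each of the 10 had at most 2 counts in any library. The UGT1A genes among them share 44% to 71% of their exon bases with other genes on the same strand. How reads in such bases were counted is not given, so the low UGT1A counts are uncertain. In NCI-H716, 5 of 10 passed, all of the UGT2 family, whose close paralogs make the single values uncertain, and none was called by edgeR. *UGT2B7* was at 79.4 and 77.2 CPM in control and at 37.7 and 51.0 CPM in Z325 libraries, with a log2 fold change of -0.82 ± 0.19 (SE) and an adjusted p of 0.113 in edgeR. It was the 1 gene of the lists that DESeq2 called in this line, at an adjusted p of 0.0215. *UGT2A3* had a log2 fold change of -0.49 (edgeR adjusted p = 0.564). *UXS1* was at 18.2 and 11.2 CPM in control and 7.64 and 8.69 CPM in Z325 libraries of NCI-H716, a log2 fold change of -0.85 (edgeR adjusted p = 0.198), and *PGM2L1*, a phosphoglucomutase-like enzyme, had one of 0.68 (edgeR adjusted p = 0.380).

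Users of UDP-GlcNAc, UDP-glucose and UDP-xylose gave no call by edgeR among 8 genes tested in HCT116 and 16 in NCI-H716. In HCT116, *POMGNT1*, which extends O-mannose glycans and shares exon bases with another gene, had a log2 fold change of -0.91 (edgeR adjusted p = 0.178), and *EXTL3*, of heparan sulfate synthesis, one of -0.52 (edgeR adjusted p = 0.519). In NCI-H716, *XYLT1*, which starts glycosaminoglycan chains, was at 3.86 and 4.07 CPM in control and 8.63 and 6.73 CPM in Z325 libraries, a log2 fold change of 0.95 (edgeR adjusted p = 0.201). *UGCG*, the glucosylceramide synthase, had one of 0.56 (edgeR adjusted p = 0.223).

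Nucleotide-sugar transporters carry these donors into the Golgi and endoplasmic reticulum, and none of 6 tested in HCT116 or 9 in NCI-H716 was called by edgeR. *SLC35A1*, the CMP-sialic acid carrier, had a log2 fold change of 0.77 in HCT116 (edgeR adjusted p = 0.0631) and *SLC35A4* one of -1.26 (edgeR adjusted p = 0.0639). DESeq2 called both, at adjusted p-values of 0.00354 and 0.0127. *SLC35A3*, with a log2 fold change of 0.77 (edgeR adjusted p = 0.0819), was also called by DESeq2, at an adjusted p of 0.0122. *SLC35A1* shares 55.5% of its exon bases with another gene on the same strand, so its values are uncertain. *SLC35A4* shares 6.80%, on the other strand, and *SLC35A3* 6.36% on the same strand and 3.33% on the other. In NCI-H716, *SLC35B4* and *SLC35A5* were at -0.21 and -0.32 (edgeR adjusted p = 0.580 and 0.589). In sialic acid synthesis, which begins from UDP-GlcNAc and was measured in NCI-H716 only, the 4 tested genes had log2 fold changes from -0.17 for *NANS* to 0.16 for *NANP*, with none called by edgeR (adjusted p = 0.651 and 0.689). *FPGT* and *GMDS*, of GDP-fucose synthesis, were at 0.57 and -0.49 there (edgeR adjusted p = 0.245 for each), with none of the 9 genes of that list called. *GPI*, *NANS* and *FPGT* share between 5.08% and 8.56% of their exon bases with another annotated gene and are uncertain to that extent.

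The difference between the lines was tested for the 31 of the 73 genes that passed the filter in each line. None was called by edgeR in this test, where 0.0654% of 7642 genes were. An unadjusted p under 0.05 was reached by 4, and the share of all genes reaching it was not computed. DESeq2 called 137 genes in all in this comparison, and how many of the 31 were among them was not computed.

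Genes whose pattern was most like that of *UAP1* and *UGDH* were sought by Pearson's r of log2(CPM + 1), centred within each line, over the 8 libraries and 2985 genes. All points share libraries and depth, and the values are a description without a p-value. For *UAP1* they were *ODR4* (r = 0.996), *DMXL1* (0.987), *HMGN4* (0.986), *TMEM242* (0.981) and *NDUFB2* (0.981). Each had a log2 fold change between 0.45 and 0.69 in HCT116 and between 0.07 and 0.17 in NCI-H716, all smaller than that of *UAP1* in HCT116. For *UGDH* they were *AKR1B10* (0.989), *CLGN* (0.988), *GPAT3* (0.980), *BAG2* (0.980) and *EMC2* (0.979). *GPAT3*, which starts the acylation of glycerol-3-phosphate, had log2 fold changes of 1.05 in HCT116 and 1.24 in NCI-H716, close to those of *UGDH*. *AKR1B10*, an aldo-keto reductase with close paralogs and thus uncertain, had 2.73 and 5.91. Among the 5 genes in both tables, *UGDH* had r = 0.94 with *PGM3* and 0.93 with *GFPT1*, and *UAP1* had 0.85 with *PGM3* and -0.30 with *UGP2*. The difference between Z325 and control enters each r, and *UAP1* and *UGDH* were chosen on it. The share of all genes reaching such r was not computed, so nothing is read from these values.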

How the data were processed

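RNA was measured in 8 libraries, 2 per group. The HCT116 file deposited by the authors holds raw read counts per gene in the layout of featureCounts, of which 28043 genes were used after 4 of 28047 lines were left out as broken. The 4 NCI-H716 files deposited by the authors are RSEM output, in which each gene has its expected count, TPM, FPKM and transcript length in bases. The methods name TrimGalore, STAR, RSEM and GRCh38, whereas the submitters' processing notes name Bowtie2, featureCounts and hg38, so the aligner behind the HCT116 counts is not certain. Reads shared between overlapping genes may have been split in ways not given in the sources used here. No per-sample column was left without a sample. HCT116 FPKM was computed here from counts, lengths and listed totals. Of the NCI-H716 identifiers, 62666 had a symbol in GENCODE v44.

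Expected counts were rounded. Each line was fitted alone in edgeR 4.0.16 (R 4.3.3) by the quasi-likelihood test after filterByExpr and TMM, with no block, adjusted by Benjamini-Hochberg over 6491 genes in HCT116 and 14142 in NCI-H716, and called at an adjusted p under 0.05. The line difference was the interaction in a fit over all 8 libraries. Alternatives were DESeq2 1.42.0, scaling by library size, other filters, limma 3.58.1 with trend on log2(FPKM + 1), log2(FPKM + 0.1) and log2(TPM + 1), and on genes with a mean FPKM of 1 or more, a replicate block, 1 common fit, thinning to the shallowest library and leaving out each library. The members and lists were chosen with earlier results of these data known. Named were all 7 members, the list genes called (up to 4 a list by adjusted p), the 2 with the smallest p in a list with none called, and the 5 genes most like *UAP1* and *UGDH*. The list genes that DESeq2 called in HCT116 were named as well, after their values were seen. On simulated libraries with 200 genes changed 4-fold, edgeR called 86.0% with 5 false calls in HCT116 (6491 genes), 93.0% with 9 in NCI-H716 (14142 genes) and 40.5% with 2 in the line difference (7642 genes). Python 3.11.15, pandas 2.3.3 and matplotlib 3.10.9 were used.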

Additional observations from a re-analysis of the deposited data

Results flagged for a closer look

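*UGP2* lay on opposite sides of its controls in the lines, in every library, with a log2 fold change of -0.21 in HCT116, where both Z325 libraries lay below both controls, and of 0.36 in NCI-H716, where both lay above. This difference was not tested, because the gene was chosen from this contrast. Of the 31 other genes of nucleotide-sugar metabolism tested in both lines, *NAGK*, *PGM1*, *PGM2* and *ALG14* also had fully separated groups in opposite directions (named after their values were seen). The adjusted p of their line difference in edgeR was 0.418, 0.377, 0.506 and 0.362. Over all genes tested, both Z325 libraries lay above both controls for 24.8% in HCT116 and 24.3% in NCI-H716, and below them for 29.0% and 25.1%. The share of all genes separated in opposite directions was not computed, so nothing is read from this pattern.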

How the results depend on the processing

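The 12 fold changes of the 7 genes kept their sign in all 173 recomputations, and 144 moved by less than 1 SD between libraries. The widest range was that of *GFPT1* in NCI-H716, from 0.79 to 1.27. *UAP1* ran from 0.08 to 0.45 there and from 1.37 to 1.65 in HCT116. Counts of calls depended more on the setting, and the cause was not tested. In HCT116, 375 genes (184 higher and 191 lower) were called by edgeR, against 767 by DESeq2, 683 without a filter (260 higher and 423 lower) and 615 with at least 10 counts in every library. limma called 47 and, with a pseudocount of 0.1 or a minimum FPKM of 1, 37 and 35. Leaving out 1 library gave 23 to 1076, with 44 and 23 without control replicate 1 or 2 and 971 and 1076 without Z325 replicate 1 or 2. Of the list genes there, 2 were called in edgeR, 9 in DESeq2, 7 without a filter, 7 with the stricter filter, 0 in each limma setting, 6 after thinning and 0 to 9 without 1 library (1 and 0 without control replicate 1 or 2, 5 and 9 without Z325 replicate 1 or 2). Of the 5 members there, 4 were called, against 1 in each limma setting and 1 to 4 without 1 library. In NCI-H716, 71 genes (57 higher and 14 lower) were called, against 364 (173 higher and 191 lower) by DESeq2, 777 (290 higher and 487 lower) without a filter, 6 by limma on FPKM with either pseudocount and on TPM, 8 with the minimum FPKM, 19 in the fit over all libraries and 38 to 1386 without 1 library (38 without control replicate 1, 1386 without Z325 replicate 1, 222 without Z325 replicate 2, 225 without control replicate 2). The list genes called went from 0 to 1 in DESeq2 and without a filter, and were 0 to 1 without 1 library. Of the 7 members, 1 was called in edgeR, 2 (*UGDH* and *GFPT1*) in DESeq2, with library size scaling, without a filter, with the stricter filter and after thinning, 0 in each limma setting, and 0 to 2 without 1 library (0 without control replicate 1). The line difference called 5 genes, 137 in DESeq2, 106 without a filter, 26 with the stricter filter and 0 to 61 without 1 library (61 and 37 without HCT116 Z325 replicate 2 or 1, 9 without HCT116 control replicate 2, and 0 without HCT116 control replicate 1, either NCI-H716 control or NCI-H716 Z325 replicate 2). With the smaller pseudocount, 9 of the 10 genes most like *UAP1* and *UGDH* remained.

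Replicates of the groups share only a number. Deviations of same-numbered libraries correlated at -0.02 in HCT116 and 0.29 in NCI-H716. With a replicate block, the calls were 381 in HCT116, with 4 list genes and 3 members, 2397 (1061 higher and 1336 lower) in NCI-H716, with 11 list genes and 4 members, and 12 in the line difference. limma on TPM has no value in HCT116, where only FPKM was computed.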
